A study of Mus musculus with 4 samples.

Results

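Cluster 9 was 1 of 17 RNA clusters that the study assigned among the monocytes, macrophages and dendritic cells (the MoMacDC bundle) of mouse spleen, and its cells were taken here by that deposited cluster number alone. It held 358 of the 6075 cells of the bundle, out of 11631 CD11b+ splenocytes in all. The steady-state library gave 122 of these cells and the GM-CSF library gave 236. The study used these cells, whose deposited cell type name was mostly Progenitor DC, as the starting point of its developmental ordering. The values below ask which genes and surface proteins marked them, whether those belonged to progenitors or to conventional dendritic cells (cDCs), and how they differed between the libraries.

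The data were CITE-seq, which counts the mRNA molecules of each cell as unique molecular identifiers (UMIs) and, in the same cell, antibody-derived tags (ADTs) for a few surface proteins, here CD11c, MHC II, Ly6C, CD115 and CD301b. Cells were CD11b+ splenocytes sorted by flow cytometry, from mice in steady state or from mice that had received 10 µg of GM-CSF under the skin once a day, 3 times in all, and were examined 24 hours after the last dose. The C57BL/6 mice of the study were 8 to 12 weeks old, and how many mice stood behind each library is not given in the sources used here. With 1 library per condition no difference has a replicate check, so that an effect of GM-CSF and a difference between libraries cannot be told apart, and no test was made. The intervals are exact 95% intervals and cover counting error only.

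Conventional dendritic cells of the spleen arise from bone marrow precursors that carry the receptor tyrosine kinases FLT3 and KIT, and mature cDCs keep FLT3. The CD11b+ branch, cDC2, contains cells that depend on the receptor NOTCH2, sit close to the marginal zone, and carry the adhesion molecule ESAM, the lectin DCIR2 (gene Clec4a4) and CD4. Other cDC2s lack ESAM and share several genes with monocytes, among them the chemokine receptor gene Ccr2 and the CD115 gene Csf1r. Early progenitors of the marrow are told from both by genes such as Cd34, Mpo and Gata2.

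Cluster 9 made up 5.71% of the bundle in steady state (95% interval 4.77 to 6.78) and 5.99% after GM-CSF (5.27 to 6.78), so its share was close to the same in both libraries. Of all CD11b+ cells it made up 2.53% and 3.47%, respectively. Its summed libraries held 1001363 and 1487273 UMIs. The median cell had 6658 UMIs in steady state and 6082 after GM-CSF, from 2356 and 2168 genes, near the medians of the rest of the bundle (6907 and 6695 UMIs). Levels are given as CPM, the UMIs of a gene per 1000000 UMIs of the summed cells, and 3 UMIs, taken as the limit that a count of 0 allows, corresponded to 3 CPM in steady state and 2.02 CPM after GM-CSF.

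Most of the cells carried the name Progenitor DC, 100 of 122 in steady state and 225 of 236 after GM-CSF. The other 22 and 11 cells were named MoMacDC_c2. By the study's gates on tag levels, 121 of 122 and 234 of 236 cells were CD115-. The name Progenitor DC was not limited to cluster 9, since cluster 12 held 19 and 151 cells of that name and cluster 14 held 29 and 7. No cell barcode of cluster 9 occurred in both libraries.

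The genes that gave the cluster its identity were compared with the remaining 5717 cells of the bundle. Esam lies at chr9:37528078-37538319 on the plus strand (mouse GRCm38, GENCODE annotation), Clec4a4 at chr6:122990367-123024105 (plus), Cd4 at chr6:124864692-124888221 (minus) and Dtx1, a Notch pathway ubiquitin ligase, at chr5:120680202-120711927 (minus). Kit lies at chr5:75574916-75656722 (plus) and Flt3 at chr5:147330741-147400489 (minus). Ccnd1, encoding cyclin D1, lies at chr7:144929931-144939925 (minus), and Tbc1d4, a regulator of Rab GTPases, at chr14:101442360-101609191 (minus). The values cover all UMIs that the authors' pipeline assigned to each gene.

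Kit mRNA stood at 149 CPM in cluster 9 and 10.1 CPM in the rest of the bundle in steady state, 14.7-fold higher (11.6 to 18.7). After GM-CSF it stood at 102 CPM against 9.37 CPM, 10.8-fold higher (8.78 to 13.3). Flt3, the receptor for the main cDC growth factor, was at 141 against 37.8 CPM in steady state and at 116 against 17.6 CPM after GM-CSF, ratios of 3.74 (3.07 to 4.5) and 6.59 (5.49 to 7.86). Flt3 was not at its highest here in steady state, where cluster 3 reached 239 CPM, and among the 14 clusters with at least 20 cells cluster 9 came at rank 3 for it. After GM-CSF cluster 9 ranked first for Flt3.

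Genes of stem cells and early progenitors were divided. Of the 12 genes on a list of stem and progenitor genes, 5 reached the minimum of 50 UMIs over all compared cells in each library, 2 were at least 2-fold higher in cluster 9 in both libraries and 1 was at least 2-fold lower. The higher genes were Kit and Meis1, a homeobox factor of stem cells and megakaryocytes that was at 27.0 and 15.5 CPM against 8.03 and 6.09 CPM in the rest. Cd93, carried by early progenitors and by monocytes, was the lower one, at 6.99 and 0.672 CPM against 60.1 and 10.9 CPM. No UMI of Cd34, Gata2, Hoxa9, Hlf or Mpo was counted in any of the 358 cells, and for Myb there was 1 UMI. For Cd34 this meant 0 of 122 and 0 of 236 cells, which allows shares of up to 2.46% and 1.27% of cells with a UMI. In the rest of the bundle Cd34 was itself at 0.645 and 0.547 CPM, below the limit of 3 and 2.02 CPM that a count of 0 allows in cluster 9, so its absence did not set the cluster apart. Sox4, a transcription factor of several immature cell types, was at 39.9 and 6.72 CPM against 3.08 and 0.937 CPM, although the rest of the bundle held too few UMIs after GM-CSF for it to be counted among the 5. Cebpa, a factor of myeloid progenitors and of monocytes, was at 50.9 and 39.7 CPM against 95.5 and 82.1 CPM.

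Over all 9390 genes compared, 2.74% were at least 2-fold higher in cluster 9 in both libraries (257 genes) and 6.69% were at least 2-fold lower (628 genes), with median ratios of 0.982 and 0.981. Because the clusters were made from these same genes, the ratios describe the cluster and do not test it.

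Most genes of ESAM+ cDC2s that were compared were higher. Of the 8 genes on the list for these cells and for Notch signalling, 7 were compared and 4 were at least 2-fold higher in both libraries, namely Esam, Clec4a4, Cd4 and Dtx1, with a median of the smaller ratio over the list of 12.9. Esam had the highest ratio of any gene compared, by the smaller of its ratios in both libraries. The minimum counted cluster 9 together with the rest, and Esam and Clec4a4 reached it only with their UMIs in cluster 9. It was at 42.9 CPM against 1.51 CPM in steady state and at 25.6 against 1.05 CPM after GM-CSF, 28.2-fold (16.6 to 50.6) and 24.1-fold (14.4 to 41.3) higher. Clec4a4, the lectin used with CD11c, MHC II and SIRPα to recognize splenic cDC2s, was 13.6-fold (8.45 to 21.8) and 12.9-fold (7.63 to 21.2) higher. Cd4, the co-receptor that most splenic cDC2s share with helper T cells, was at 112 and 77.3 CPM against 6.88 and 4.84 CPM. Dtx1 was at 141 and 55.8 CPM against 9.32 and 3.44 CPM. The general Notch target Hes1 and the receptor gene Notch2 were less than 2-fold apart from the rest, with ratios of 0.85 and 1.47 for Hes1 and of 0.825 and 0.605 for Notch2. Tbx21, also on the list, had ratios of 1.64 in steady state and 13.3 after GM-CSF.

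**Figure D1:**
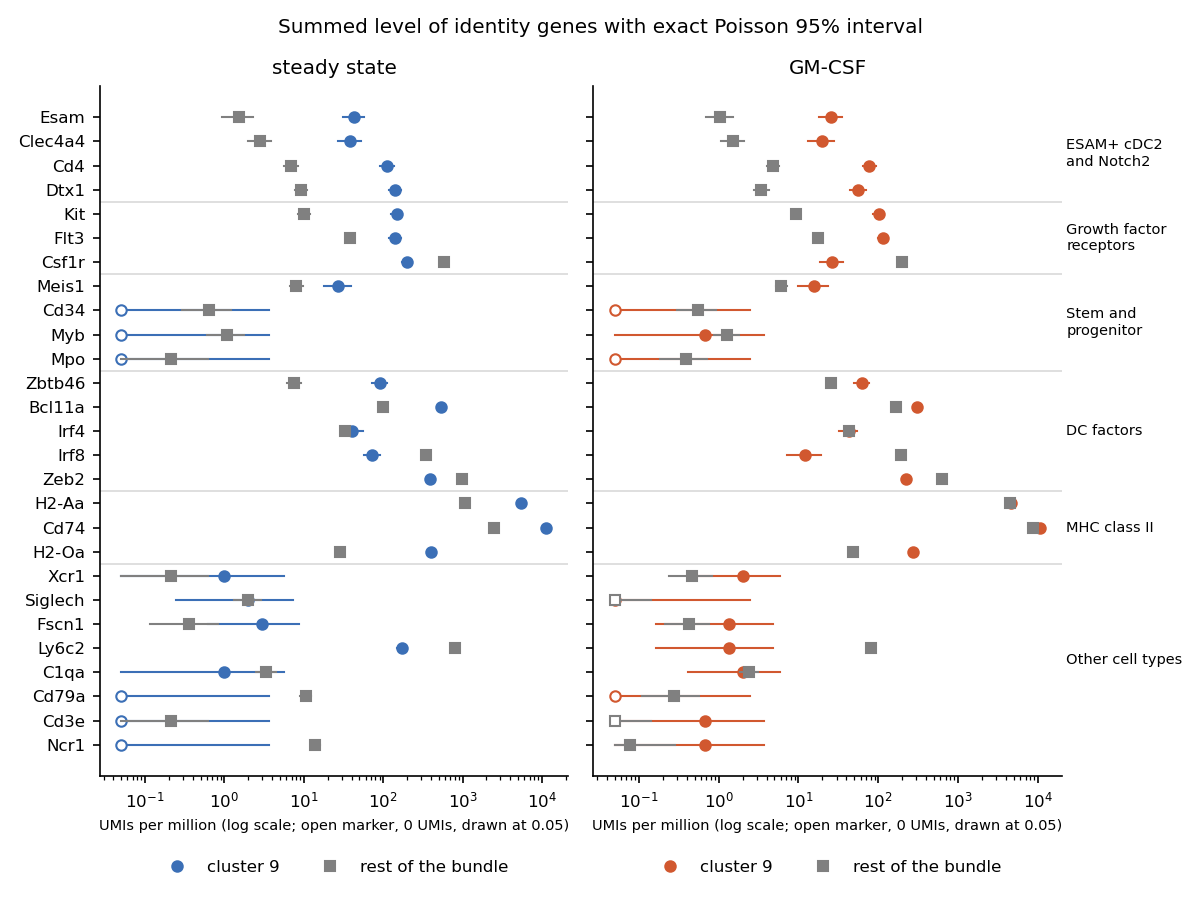
Level in CPM (log x axis) of 27 genes grouped by list, in cluster 9 (circles) and in the rest of the bundle (squares), 1 panel per library, with lines for exact 95% Poisson intervals and open markers for 0 UMIs. Esam, Clec4a4, Cd4, Dtx1 and Kit lie at least 10-fold above the rest in both libraries, whereas Cd34 and Mpo had no UMI in cluster 9.

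In single cells Kit had at least 1 UMI in 79 of 122 cells in steady state (64.8%) and in 111 of 236 after GM-CSF (47.0%), against 0 of 196 and 0 of 79 B cells, which allows up to 1.53% and 3.80%. Cd4 was seen in 48.4% and 30.9% of the cells, Esam in 28.7% and 12.3%, and Clec4a4 in 26.2% and 11%. With B cells at 0 or 1 cell for Esam, Clec4a4 and Cd4, these shares were above the level that free RNA gave in cells lacking the genes, although B cells were shallower, with medians of 2976 and 2741 UMIs. Dtx1 was seen in 47.5% and 22.9% of cluster 9 and also in 26.0% and 20.3% of B cells, a cell type that is known to use it. After each cell was thinned to 2000 UMIs, which left out 5 cells of the GM-CSF library, the shares for Kit came to 23.0% and 18.6%, for Cd4 to 22.1% and 14.7%, for Esam to 7.38% and 5.19% and for Clec4a4 to 9.02% and 3.46%.

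The same cells could hold UMIs of both lists. At 2000 UMIs per cell, 29 of 122 cells in steady state (23.8%, 16.5 to 32.3) and 28 of 231 after GM-CSF (12.1%, 8.21 to 17.0) held a UMI of both the progenitor list and the ESAM+ cDC2 list. In steady state the second list was seen in 64.4% of the cells with a UMI of the first list (48.8 to 78.1) and in 68.8% of the cells without one (57.3 to 78.9). After GM-CSF these shares were 41.8% (29.8 to 54.5) and 34.1% (26.9 to 41.9). The intervals overlapped in both libraries. Cells with and without progenitor-list mRNA thus could not be separated by mRNA of the ESAM+ cDC2 list at this depth. Both lists also held genes not higher in cluster 9, such as Cebpa and Notch2. Summed, the progenitor list was at 292 and 166 CPM in cluster 9 and at 259 and 154 CPM in cluster 5. A UMI of a list thus does not by itself name a progenitor or a cDC2, and shares for other clusters are not given here.

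When the lists were narrowed, after the data had been seen, to Kit on the one hand and Esam, Clec4a4, Cd4 and Dtx1 on the other, 53.6% of the cells with Kit and 54.3% of those without it held any of the 4 genes in steady state, and 25.6% and 27.7% did after GM-CSF. Summed over the full depth of each cell, the 4 genes reached 381 CPM (335 to 430) in the steady-state cells with a Kit UMI and 241 CPM (191 to 299) in those without, at median depths of 6799 and 6549 UMIs. After GM-CSF the sums were 165 CPM (137 to 198) and 191 CPM (161 to 224). Cells with Kit mRNA therefore did not hold less of the 4 cDC2 genes in steady state, and the intervals overlapped after GM-CSF.

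Genes that cDC2s share with monocytes were low. Of the 9 on that list, none was at least 2-fold higher and 6 were at least 2-fold lower in both libraries: Clec10a and Mgl2 (lectins, the latter encoding CD301b), Clec12a (an inhibitory lectin), Cx3cr1 and Ccr2 (chemokine receptors) and Csf1r. Ccr2 was at 144 and 36.3 CPM against 833 and 495 CPM in the rest. Csf1r was at 199 and 26.2 CPM against 581 and 196 CPM, which placed cluster 9 at rank 11 and 13 of 14 clusters. Sirpa, a cDC2 surface gene that monocytes also carry, stood near the level of the rest, with ratios of 0.962 and 0.892.

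Of the genes of other dendritic lineages that were compared, 1 was at least 2-fold higher in both libraries, and most on the lists had too few UMIs. Of 8 cDC1 genes only Wdfy4, needed by cDC1s for cross-presentation, had enough UMIs, and its ratios were 4.30 and 2.84. The summed cDC1 list was at 454 and 471 CPM against 111 and 172 CPM in the rest, with most of its UMIs from Wdfy4. Xcr1 had 1 and 3 UMIs, Clec9a 2 and 0, and Cd8a 0 and 1. Itgae, also of this list, had 0 and 46 UMIs, and after GM-CSF it was at 30.9 CPM against 10.4 CPM in the rest. Tlr3 had 8 and 5 UMIs, with ratios of 3.54 (1.35 to 7.46) and 1.24 (0.357 to 2.76). Clec9a went the other way, with ratios of 0.733 and 0.12. Cells were sorted on CD11b, a marker that the paper lists for splenic cDC2s. The part of the sort in these values was not tested. None of the 3 genes of plasmacytoid DCs and none of the 3 genes of activated DCs that were compared was at least 2-fold higher in both libraries. The activated DC genes were all above the rest, with ratios of 2.79 and 1.76 for Relb, 2.70 and 1.53 for Il4i1 and 1.48 and 3.08 for Cd40. The summed activated DC list was at 209 and 106 CPM against 91.9 and 54.4 CPM in the rest. Fscn1, an actin-bundling protein of migrating DCs, had 3 and 2 UMIs, and Ccr7, which guides them to lymphatics, had 6 and 3. From these few UMIs the ratios of Ccr7 were 4.02 and 3.26 and those of Fscn1 8.87 and 3.74.

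Among 15 DC transcription factors, Zbtb46, which marks cDCs, was the only one at least 2-fold higher in both libraries, at 90.9 CPM against 7.60 CPM in steady state and at 61.9 against 25.5 CPM after GM-CSF. Its ratio of 2.43 (1.93 to 3.02) after GM-CSF was below that of 12 (8.94 to 16.0) in steady state. Irf8, the factor of cDC1s and monocytes, was at least 2-fold lower in both libraries, at 72.9 and 12.1 CPM against 348 and 192 CPM, as were Nfil3 (a bZIP factor) and Zeb2 (a repressor active in monocytes and cDC2s). Irf4, a cDC2 factor, had ratios of 1.24 (0.870 to 1.69) and 0.986 (0.747 to 1.26). Bcl11a, a factor of lymphoid and dendritic precursors, was 5.46-fold and 1.84-fold higher.

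MHC class II genes set cluster 9 apart in steady state but less so after GM-CSF. Of 10 genes of MHC II presentation, H2-Oa and H2-Ob, the chains of the DO modulator, and H2-DMb2, a chain of the DM peptide editor, were at least 2-fold higher in both libraries. H2-Aa, the I-A alpha chain, was at 5520 CPM against 1066 CPM in steady state and at 4540 against 4470 CPM after GM-CSF, ratios of 5.18 (5.02 to 5.34) and 1.02 (0.991 to 1.04). H2-Oa, in contrast, was at 395 against 28.2 CPM and at 275 against 48.4 CPM. H2-Eb2, a class II chain gene outside the list, was 18.1-fold and 28.1-fold higher.

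The antibody tags, which were not used to form the RNA clusters, placed the cells with MHC II+ CD11c+ cells. The median CD11c tag count was 375 in cluster 9 and 7 in the rest of the bundle in steady state, and 329 against 154 after GM-CSF. For MHC II the medians were 992 against 14 in steady state and 344 against 285 after GM-CSF. In steady state 121 of 122 cells exceeded the upper quartile of the rest for CD11c and 122 of 122 did so for MHC II, although cluster 12 had higher medians of both tags (494 and 1670) and cluster 9 came at rank 3 of 14 clusters for each. After GM-CSF 160 of 236 (67.8%) and 60 of 236 (25.4%) did, so cluster 9 was less set apart by MHC II. The medians of the remaining 3 tags were lower in cluster 9 in both libraries. Ly6C was at 32.5 against 549 in steady state and at 10 against 21 after GM-CSF, CD115 at 1 against 4 and at 4 against 39, and CD301b at 0 against 3 and at 6 against 18. CD115, the surface protein by which the study defined its GM-CSF-induced cells, had in cluster 9 the lowest median of the 14 clusters after GM-CSF. Tag counts were not scaled between the libraries and are compared only within each.

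**Figure D2:**
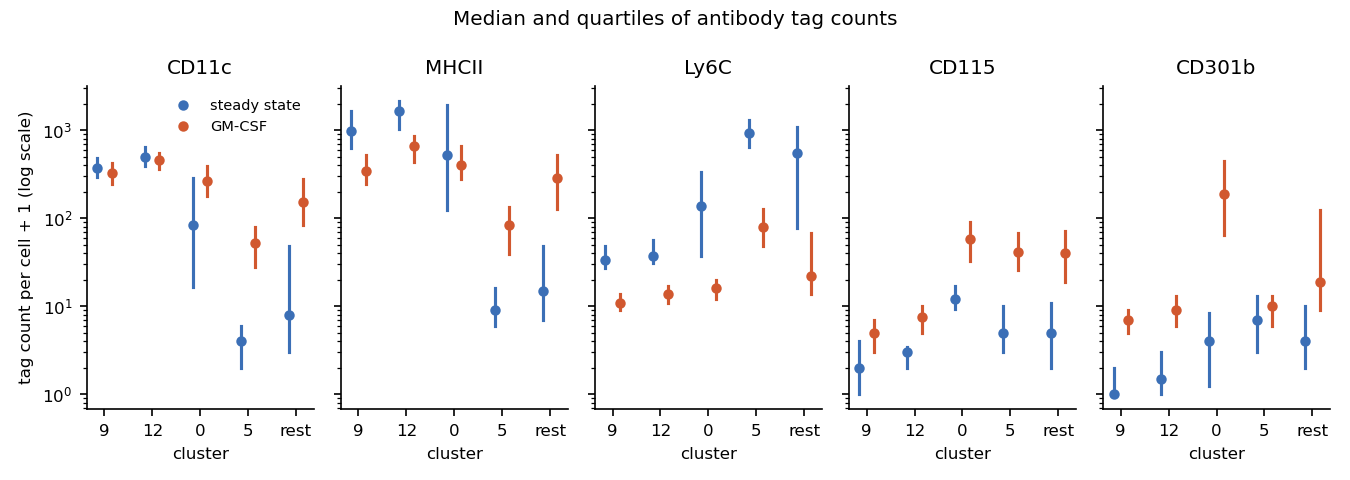
Tag counts per cell plus 1 (log y axis) of the 5 antibody tags in clusters 9, 12, 0 and 5 and in the rest of the bundle (all cells outside cluster 9), with points for medians and lines for quartiles, coloured by library. Cluster 9 is high in CD11c and MHC II and low in Ly6C in steady state, and after GM-CSF its MHC II counts (median 344) overlap those of the rest (median 285).

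The markers spoke for both sides of the label. Kit, Flt3 and Meis1 were high, and so were Esam, Clec4a4, Cd4 and Dtx1 in the mRNA and MHC II and CD11c in the tags. The other progenitor-list genes compared had ratios below 1 in both libraries, Cd93 with 0.124 and 0.0924, Cebpa with 0.538 and 0.487 and Cdk6 with 0.785 and 0.136. The median of the smaller ratio was 0.487 over the progenitor list and 12.9 over the ESAM+ cDC2 list. These medians leave out genes below the minimum of UMIs, which Esam and Clec4a4 reached only with their UMIs in cluster 9. The medians therefore do not weigh the lists evenly. Flt3 is kept by mature cDCs. The progenitor genes without a UMI were too rare in the whole bundle to tell the sides apart. The values therefore did not settle the cells as progenitors or as cDCs, and they are called cluster 9 throughout.

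The 10 genes with the highest ratios to the rest, by the smaller of both libraries, were Esam, Rab30, H2-Eb2, Ccr6, Scn3a, Cd4, Asb2, Dtx1, Ccnd1 and Tbc1d4. Since the minimum counted UMIs of cluster 9 too, genes rare in the rest entered this ranking only if they were high in cluster 9. Ccr6, a chemokine receptor of B cells and some DCs, was at 29.0 and 44.4 CPM against 1.72 and 2.23 CPM. Asb2, a substrate receptor of ubiquitin ligases, was at 388 and 274 CPM against 20.5 and 17.7 CPM. Ccnd1, which drives cells from G1 into S phase, was at 1085 and 693 CPM against 77.1 and 43.9 CPM, and Tbc1d4 at 686 and 371 CPM against 37.1 and 27.5 CPM. Rab30, a GTPase of the Golgi, was 20.4-fold and 19.0-fold higher, and Scn3a, a sodium channel gene, 28.7-fold and 16.0-fold. Of the 7 genes for G1 cyclins and their inhibitors, Ccnd1 and Ccnd2 were at least 2-fold higher in both libraries and Cdkn1a, the inhibitor p21, was lower. Of 6 chemokine and positioning receptor genes compared, Gpr183 and Ccr6 were higher and 4 were lower, among them Ccr2, Cx3cr1 and Cxcr4. The 10 genes that the study had named for clusters 9, 12 and 14 on these cells were at least 2-fold higher in both libraries, 10 of 10, which is no independent evidence.

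These genes were shared with cluster 12 and, in steady state, with cluster 14. Kit, at 149 CPM in cluster 9 in steady state, was at 122 CPM (82.2 to 174) in the 20 cells of cluster 12. After GM-CSF it was at 102 CPM in cluster 9 and at 106 CPM (89.8 to 123) in the 152 cells of cluster 12. Clec4a4 was at 19.5 CPM in cluster 9 and 18.5 CPM in cluster 12 after GM-CSF (12.3 to 26.7). For Kit and Clec4a4 the clusters did not differ beyond counting error. Ccnd1 did, at 693 CPM in cluster 9 against 276 CPM (250 to 303) in cluster 12 after GM-CSF, as did Tbc1d4 at 371 against 237 CPM (214 to 263). All cells of cluster 12 were assigned to S or G2/M phase, 20 of 20 and 152 of 152. The highest Kit level in any other cluster after GM-CSF was 10.3 CPM, in cluster 3.

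Genes of monocytes and neutrophils were lower in cluster 9 than in the rest, whereas those of macrophages and lymphocytes were near the rest or low in both. All 8 classical monocyte genes, all 10 neutrophil genes compared and 3 of 8 non-classical monocyte genes were at least 2-fold lower in both libraries. The summed classical monocyte genes were at 872 CPM in steady state and 63.9 CPM after GM-CSF, against 5658 and 1302 CPM in the rest. Summed neutrophil genes were at 904 and 231 CPM against 4243 and 3821 CPM. Of 6 macrophage genes compared, C1qb (a complement component) and Slc40a1 (the iron exporter) were at least 2-fold lower, and Cd5l had no UMI, but the summed macrophage list was at 325 and 280 CPM against 281 and 272 CPM. Summed B cell genes were at 35.0 and 14.8 CPM against 48.9 and 4.88 CPM, and summed T cell genes at 3.99 and 7.40 CPM against 8.74 and 1.45 CPM, so that both were higher than in the rest after GM-CSF, from 22 and 11 UMIs. NK cell genes were at 25 and 7.40 CPM against 413 and 39.6 CPM. Cd79a and Pax5, which define B cells, had no UMI, Cd3e of T cells had 0 and 1, and Prf1 of NK cells had none.

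Within cluster 9 the libraries were then compared on summed UMIs. Of 5706 genes with at least 50 UMIs over both libraries, 228 were at least 2-fold higher after GM-CSF (4.0%) and 440 at least 2-fold lower (7.71%), with a median ratio of 0.943. Of the 228 higher genes 100 (43.9%) were also at least 2-fold higher in the rest of the bundle, and of the 440 lower genes 244 (55.5%) were also lower there. The share of all 5706 genes that differed 2-fold in the rest is not given here, so these overlaps have no baseline. Among cells named Progenitor DC, an alternative chosen after seeing the data, 4.79% of 5099 genes were at least 2-fold higher (244) and 7.51% lower (383). They shared 173 of the 228 genes (75.9%) and 287 of the 440 (65.2%).

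The genes of the ESAM+ cDC2 list that reached the minimum of UMIs were lower after GM-CSF. Of the 6 compared, 3 were at least 2-fold lower and none at least 2-fold higher, with a median ratio of 0.464 beside 0.943 over all genes. Dtx1 was at 141 CPM in steady state and 55.8 CPM after GM-CSF, a ratio of 0.397 (0.298 to 0.523). Hes1 went with it at 105 and 21.5 CPM (0.207, 0.134 to 0.307), and Notch2 at 89.9 and 37.0 CPM (0.413, 0.289 to 0.582). Nrarp, a feedback inhibitor of Notch signalling, had 6 UMIs in steady state and none after GM-CSF, at least 2.97-fold lower, although 83.3% of its UMIs came from 1 cell. The surface genes were lower by less than 2-fold, Esam with a ratio of 0.596 (0.374 to 0.943), Clec4a4 with 0.516 (0.306 to 0.855) and Cd4 with 0.691 (0.528 to 0.905). In the rest of the bundle the ratio was 0.370 for Dtx1, 0.120 for Hes1 and 0.563 for Notch2, so these genes were lower there as well.

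Of the 4 progenitor-list genes compared, none was at least 2-fold higher after GM-CSF. Sox4 was at least 2-fold lower, at 39.9 and 6.72 CPM, with 24% of its UMIs in 1 cell. Kit was at 149 and 102 CPM, a ratio of 0.682 (0.540 to 0.861), and Flt3 at 141 and 116 CPM, a ratio of 0.821 with an interval that included 1 (0.654 to 1.03). Meis1 had a ratio of 0.575 (0.314 to 1.04).

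Of the receptor genes through which growth factors reach these cells, Csf1r was lower after GM-CSF with a ratio of 0.133 (0.0911 to 0.187), and Csf3r, the G-CSF receptor, was also at least 2-fold lower. Both were lower in the rest of the bundle too, Csf1r at 581 and 196 CPM and Csf3r at 288 and 46.1 CPM. Csf2rb, the signalling chain of the GM-CSF receptor, was at 174 and 136 CPM, a ratio of 0.781 (0.635 to 0.963), and Csf2ra, its binding chain, at 178 and 96.1 CPM. In the rest Csf2rb was higher after GM-CSF, at 189 and 226 CPM, and Csf2ra lower, at 230 and 190 CPM. Of 4 STAT5 target genes compared, Pim1, a survival kinase, and Ccnd2, cyclin D2, were at least 2-fold lower and none was at least 2-fold higher. Pim1 and Ccnd2 were lower in the rest too, at 645 and 278 CPM and at 27.6 and 7.3 CPM. Ccnd1 was at 1085 and 693 CPM, a ratio of 0.639 (0.586 to 0.696), and Tbc1d4 had a ratio of 0.541 (0.483 to 0.606).

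MHC class II mRNA in cluster 9 was close in both libraries while it was higher after GM-CSF in the rest of the bundle. None of the 10 genes differed by 2-fold within cluster 9, and their median ratio was 0.962. The list summed to 29931 CPM in steady state and 27285 CPM after GM-CSF in cluster 9, against 5932 and 23203 CPM in the rest. H2-Aa had a ratio of 0.822 (0.794 to 0.852) in cluster 9 and 4.19 in the rest. Ciita, the master activator of class II genes, was at 255 and 283 CPM, a ratio of 1.11 (0.949 to 1.30), against 3.74 in the rest. Zbtb46 was at 90.9 and 61.9 CPM in cluster 9, a ratio of 0.681 (0.504 to 0.920), against 3.35 in the rest. What cells made up the rest differed greatly between the libraries, since cluster 0 held 14 and 668 cells and cluster 5 held 442 and 141.

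**Figure D3:**
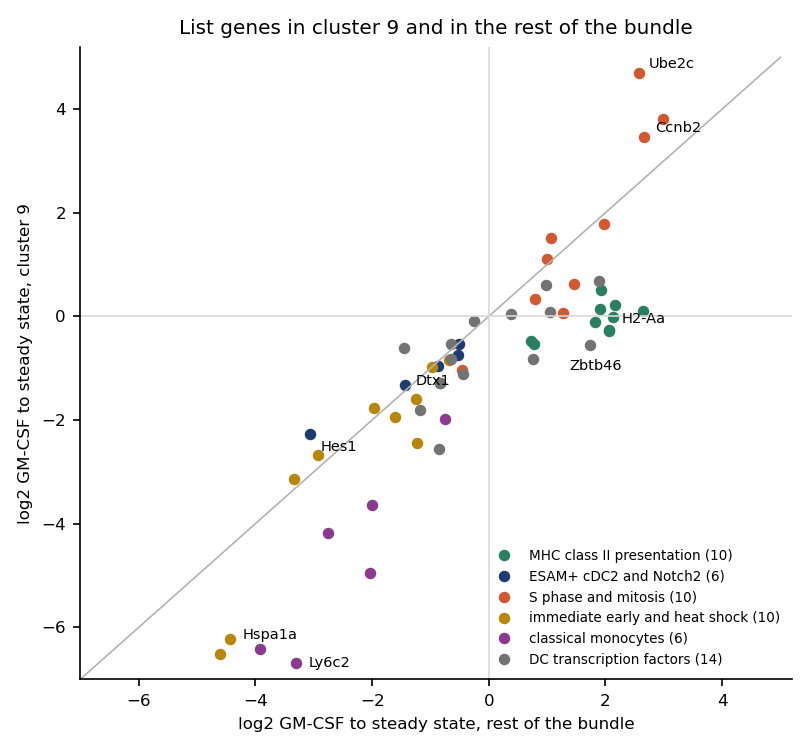
Log2 ratio of GM-CSF to steady state in the rest of the bundle (x axis) and in cluster 9 (y axis), 1 point per gene of 6 lists, coloured by list, with the line of equal ratios. MHC II genes lie right of 0 and close to 0 in height (ratios of 4.19 and 0.822 for H2-Aa), whereas stress and monocyte genes lie low on both axes.

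Genes of cell division had the highest ratios of GM-CSF to steady state. The first 10 were Knstrn (46.0, 12.1 to 2739), Sept3 (35.7), Ube2c (26.1), Cd24a (25.3), Gp2 (22.7), Cdca3 (18.2), Stmn1 (15), Birc5 (14.1), 2810417H13Rik (13.4) and Ccnb2 (11.1). Knstrn (a kinetochore and spindle protein), Ube2c (an enzyme of the anaphase-promoting complex), Cdca3, Birc5 (survivin), Stmn1 (a microtubule regulator), 2810417H13Rik (a PCNA-binding protein) and Ccnb2 (cyclin B2) act in replication or mitosis. Ube2c had 4 UMIs in steady state and 174 after GM-CSF, and Knstrn had 1 and 102. Cd24a, a surface glycoprotein of cDC1s, granulocytes and many immature cells, had 3 and 131 UMIs, and Sept3, a septin, had 1 and 79. Gp2, a glycoprotein that binds bacteria on M cells, had 1 and 50 UMIs, and its ratio in the rest of the bundle was 60.5. Sept3 was at 42.3 in the rest, so neither was higher in cluster 9 alone. The other genes of the first 10 were higher after GM-CSF in the rest of the bundle as well. There Knstrn was at 8.24 and 57.8 CPM, Ube2c at 42.6 and 254, Cd24a at 25.2 and 181, and Ccnb2 at 14.3 and 91.2 CPM. Itgae, of the cDC1 list, and Mgl2, both below the minimum of 50 UMIs, had no UMI in steady state. After GM-CSF they were at least 10.3-fold and at least 8.53-fold higher (46 and 38 UMIs), with 34.2% of the Mgl2 UMIs in 1 cell. Both were higher in the rest too, Itgae at 0.215 and 10.4 CPM and Mgl2 at 7.02 and 229 CPM.

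Of the 10 S phase and mitosis genes compared, 6 were at least 2-fold higher, Mki67, Ccnb2, Mcm2, Mcm3, Birc5 and Ube2c, and Pcna, the replication clamp, was at least 2-fold lower, at 53.9 and 26.2 CPM. Mki67, a marker of cycling cells, was at 21.0 and 74.0 CPM, a ratio of 3.46 (2.20 to 5.92). In the rest of the bundle Mki67 was at 59.4 and 235 CPM, so it was higher after GM-CSF there as well. By the deposited phase names, which rest on many of the same genes, 17 of 122 cells were in S or G2/M in steady state (13.9%, 8.33 to 21.4) and 89 of 236 after GM-CSF (37.7%, 31.5 to 44.2). Cells in G2/M numbered 4 (3.28%) and 49 (20.8%), and cells in S phase 13 (10.7%) and 40 (16.9%), so that most of the difference lay in G2/M. In the rest of the bundle the share in S or G2/M was 24.6% and 35.9%.

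The G2/M cells of cluster 9 differed from those of cluster 12. After GM-CSF the 49 G2/M cells of cluster 9 had Ccnb2 at 451 CPM and Knstrn at 202 CPM, against 298 and 173 CPM in the 117 G2/M cells of cluster 12. Top2a, the topoisomerase that S and G2 cells build up, was at 32.0 CPM against 1058 CPM, Cdk1, the mitotic kinase, at 9.61 against 294 CPM, and Mki67 at 256 against 848 CPM. Other mitotic genes were lower as well, by less, with Ube2c at 346 against 1045 CPM, Birc5 at 496 against 807 CPM, Cdca3 at 160 against 339 CPM and Ccnb1 (cyclin B1) at 73.6 against 185 CPM. Ccnb2 was higher in cluster 9 beyond counting error, whereas the intervals of Knstrn overlapped. These genes helped to separate the clusters, so the difference is a description of them.

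**Figure D4:**
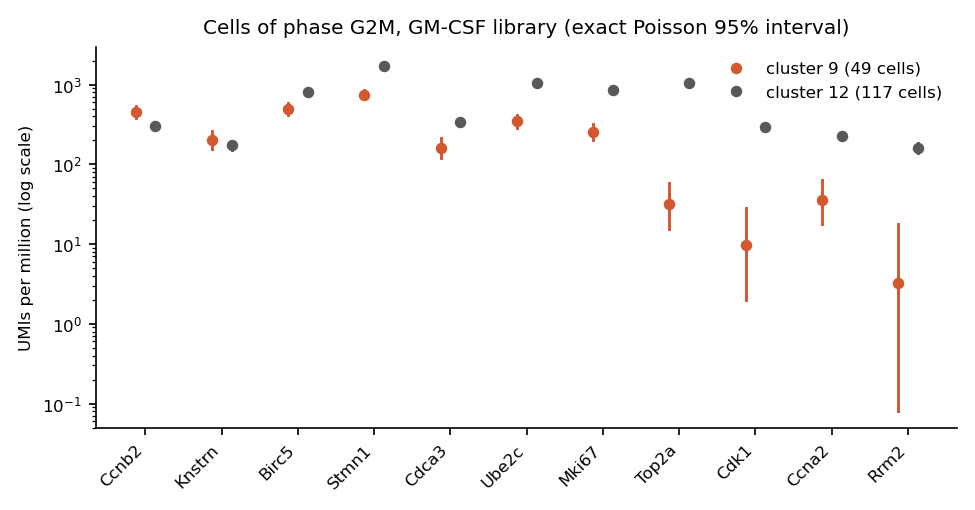
Level in CPM (log y axis) of 11 cell cycle genes in the G2/M cells of clusters 9 and 12 after GM-CSF, 49 and 117 cells, with lines for exact 95% Poisson intervals. Ccnb2 and Knstrn lie at 451 and 202 CPM in cluster 9 and at 298 and 173 CPM in cluster 12, whereas Top2a and Cdk1 are more than 10-fold lower in cluster 9.

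Monocyte genes and heat shock genes had the lowest ratios of GM-CSF to steady state within cluster 9. Ly6c2, the Ly6C gene of classical monocytes, had 174 UMIs in steady state and 2 after GM-CSF (ratio 0.00965), Cx3cr1 95 and 1 (0.0106), F13a1, a coagulation factor subunit, 86 and 1 (0.0117), Ace 120 and 2 (0.0140), and Hp, haptoglobin, 73 and 3 (0.0321). C3, complement component 3 (0.0143), and Cebpb, a factor of myeloid cells (0.0393), were the other named genes of this kind. Cxcl2, a neutrophil chemokine, was passed over since 54.0% of its UMIs came from 1 cell.

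In steady state the classical monocyte UMIs lay mostly in few and deep cells, and the non-classical ones did not. The 22 cells named MoMacDC_c2 had a median of 15010 UMIs against 6433 in those named Progenitor DC. They held 789 of the 873 UMIs of the classical monocyte list, at 2643 CPM (2462 to 2834) against 120 CPM (95.3 to 148) in the other cells. Of the 1438 UMIs of the non-classical list they held 473, at 1584 CPM (1445 to 1734) against 1373 CPM (1288 to 1463). They also differed by tag, with a median Ly6C count of 688 against 30.5, while their CD11c count was 446 against 364. Esam, Clec4a4, Cd4 and Dtx1 summed to 201 CPM (153 to 259) in them and 390 CPM (345 to 439) in the others. The doublet caller marked none of the 122 steady-state cells and 2 of the 236 GM-CSF cells, and the part of doublets in these values was not tested further. Without the cells over 10000 UMIs, an alternative also chosen after seeing the data, 264 genes were at least 2-fold higher after GM-CSF and 344 lower.

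**Figure D5:**
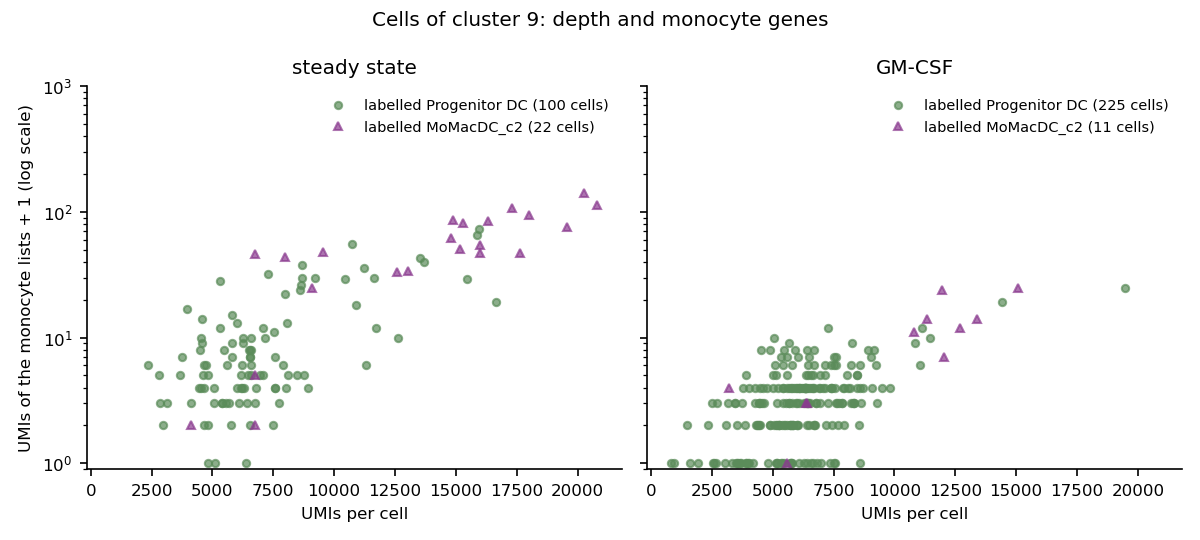
Each point is a cell of cluster 9, with its UMI count on the x axis and its UMIs of the monocyte lists plus 1 on a log y axis, coloured by deposited cell type name, for each library. In steady state the 22 MoMacDC_c2 cells lie at high depth (median 15010 UMIs), and the 29 cells over 10000 UMIs hold 67.0% of the monocyte UMIs.

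Among the cells named Progenitor DC the monocyte genes split. Ly6c2 then had a ratio of 0.364 from 3 and 2 UMIs, Ccr2 of 0.778 and F13a1 of 0.219, so that for classical monocyte genes the difference was small or rested on few UMIs. Cx3cr1 kept a ratio of 0.00560 and Ace of 0.0162. Among B and T cells of the same libraries, sorted together with cluster 9, Cx3cr1 had a ratio of 0.0910, Ace of 0.0951 and Ly6c2 of 0.215, so mRNA of these genes was lower after GM-CSF also in lymphocytes. The part of free RNA in the values of cluster 9 was not tested.

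Stress genes were lower after GM-CSF in cluster 9, in the rest of the bundle and in lymphocytes. Of 10 immediate early and heat shock genes 8 were at least 2-fold lower in cluster 9 (median ratio 0.223). Hspa1a, the inducible HSP70 gene, was at 882 and 11.4 CPM (0.0133, 0.00752 to 0.0209) and Hspa1b at 945 and 10.1 CPM. Fos, an immediate early gene, was at 1109 and 174 CPM. For Hspa1a the ratio was 0.0460 in the rest of the bundle and 0.00744 in B and T cells. Of 10 interferon response genes 5 were at least 2-fold lower in cluster 9, among them Irf7 (0.413), while Isg15 was at 114 CPM in both libraries.

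Other genes that marked the cluster went either way. Ckb, brain-type creatine kinase, was higher after GM-CSF at 249 and 546 CPM, a ratio of 2.19 (1.90 to 2.54), against 0.885 in the rest. Rgs1, a brake on chemokine receptor signalling, was lower with a ratio of 0.243 (0.218 to 0.271), as was Dnase1l3, a secreted nuclease, with 0.406 (0.351 to 0.468). Both were lower in the rest of the bundle too, Rgs1 at 103 and 37.6 CPM and Dnase1l3 at 31.3 and 15.5 CPM. Gpr183, the oxysterol receptor that positions splenic cDC2s at the bridging channels, was at 80.9 and 30.9 CPM, a ratio of 0.384 (0.260 to 0.556). In the rest Gpr183 was at 38.6 and 10 CPM. Ccr6 was at 29.0 and 44.4 CPM, a ratio of 1.52 with an interval that included 1 (0.976 to 2.46). Among transcription factors Irf8 (0.169), Klf4 (0.287) and Relb (0.465) were at least 2-fold lower, while Irf4 was at 40.9 and 42.4 CPM. In the rest Irf8 was at 348 and 192 CPM, Klf4 at 504 and 222 CPM and Relb at 47.3 and 34.8 CPM.

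The cutoffs that the study set for cDC2s on log-normalized expression (Itgax, Clec4a4 and Sirpa above 0 and H2-Aa above 2.5) were met by 27 of 122 cells of cluster 9 in steady state and 19 of 236 after GM-CSF. The paper states that it collected its cDC2s outside the bundle, whereas here the cutoffs were applied to all CD11b+ cells. Cluster 12 met them in 8 of 20 and 16 of 152 cells, all other clusters of the bundle in 17 of 1993 and 5 of 3552, and CD11b+ cells outside the bundle in 1 of 2692 and 0 of 2864. The number of cDC2s that the paper reports was not reached outside the bundle. It equalled the number of cells inside the bundle, over both libraries, that met the cutoffs. Most cells of the bundle that met these cutoffs thus lay in clusters 9 and 12. A cell without a Clec4a4 UMI could not meet them, and 26.2% and 11% of the cells of cluster 9 had one.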

How the data were processed

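The authors sorted CD11b+ splenocytes, made 3' gene expression and antibody tag libraries, and deposited UMI counts per gene and cell, counts of 5 tags per cell and cell labels. Submitters' processing notes name Cell Ranger 3.0.2 and Seurat 3.6.0, and the alignment was to mm10. The study kept cells by limits on genes detected and mitochondrial share, and the percent of mitochondrial UMIs per cell deposited by the authors reached 14.4 in the bundle. Clusters, cell type names and phases are deposited labels made on integrated expression of both libraries. The study's module scores and reductions were not used. Unused columns of per-sample values numbered 0.

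Raw counts of cluster 9 and of the rest of the bundle were summed in each library (27998 genes) and divided by their UMI total. Ratios had 0.5 counts added to each side, with intervals from the exact binomial share of the counts. Single shares have Clopper-Pearson intervals and sums Poisson intervals. Genes needed 50 UMIs, in each library against the rest, and over both libraries between conditions. A gene was counted from a fold of 2, in both libraries against the rest. Where a gene had no UMI in a library, the fold is a bound against 3 UMIs. Co-detection used cells thinned to 2000 UMIs. Doublets were called with Scrublet in each library (141 of 4827 and 186 of 6804 cells, 2.92% and 2.73%) and were kept. Of all barcodes 8 occurred in both libraries, 3 of them in the bundle.

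The named genes were any of the 24 gene lists, the 10 highest ratios to the rest, and the 10 highest and 10 lowest ratios of GM-CSF to steady state, passing over a gene with over 50% of its UMIs in 1 cell. Further genes in the text were chosen after their values were seen. The cluster and the lists were chosen with earlier results of these data known. Of the lists, 6 lymphocyte genes (Ighm, Ighd, Iglc2, Trac, Trbc1 and Trbc2) were not used here. A few genes that met these rules are not reported here.

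Simulated sums were Poisson draws from the pooled profile of the groups compared, without variation between cells or libraries. On these, changes of 4-fold were called for 100% of the higher and 86.0% of the lower genes against the rest. Between conditions 100% of both were called. Changes of 3-fold were called for 98% and 80% against the rest and for 100% and 93.9% between conditions. Of unchanged genes 0.0653% and 0.311% were called, respectively. These rates cover counting error only. The tools were Python 3.11.15, numpy 2.4.6, pandas 2.3.3, scipy 1.17.1, scanpy 1.11.5 and matplotlib 3.10.9.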

Additional observations from a re-analysis of the deposited data

Results flagged for a closer look

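Given here are 10 genes whose ratio of GM-CSF to steady state went opposite ways in cluster 9 and in the rest of the bundle. They met 1 of 2 rules stated below. Genes that met neither are left out, such as Bcl11a, at 543 and 309 CPM in cluster 9 and at 99.6 and 169 CPM in the rest. For 6 of them, all from the gene lists, the 95% counting intervals lay on opposite sides of 1 and the ratio was at least 2-fold from 1 in cluster 9 or in the rest. The difference between the groups was not tested, since each condition had 1 library. The MHC II genes H2-Aa (0.822 in cluster 9 and 4.19 in the rest), H2-Ab1 (0.835 and 4.16) and Cd74, the invariant chain (0.928 and 3.54), were slightly lower in cluster 9 and higher in the rest. So were the lectin gene Cd209a (0.681 and 2.09) and Zbtb46 (0.681 and 3.35). Ckb went the other way, at 2.19 in cluster 9 and 0.885 in the rest.

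The other 4 were in no list and were chosen after their values were seen, as the genes among 5705 compared that were at least 2-fold lower in cluster 9 and at least 2-fold higher in the rest. They were Cd81, a tetraspanin (0.363 and 2.17), Mmp12, macrophage elastase (0.482 and 28.9), Tnfrsf11a, the RANK receptor (0.384 and 2.47), and Tns1, a focal adhesion protein (0.329 and 5.54). The rest of the bundle differed in composition between the libraries, and the part of this in its ratios was not tested.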

How the results depend on the processing

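No paired analysis was possible because each condition had 1 library, and no replicate could be left out. Single-gene ratios were followed for some named genes only, under the 32 alternatives planned and the 8 added after the data had been seen. Among these genes, where they reached the minimum of UMIs, no ratio counted as 2-fold turned around. The other genes counted as 2-fold were not checked singly for this. Cebpa, which was not counted as 2-fold, went from 0.778 to 1.45 between conditions in cells named Progenitor DC. The share of cluster 9 came to 2.53% and 3.47% of all CD11b+ cells. By means over cells, 1 of 5 tags was higher in cluster 9 than in the rest after GM-CSF, against 2 by medians, since MHC II then lay below the rest. Against the rest, 147 genes were higher when cells were thinned to 2000 UMIs, 398 with a minimum of 20 UMIs, and 658 were higher and 1362 lower with the libraries pooled. Thinning left 1 higher and 2 lower progenitor genes and 1 higher ESAM+ cDC2 gene, with 4 of 12 and 3 of 8 members then reaching the minimum. There were 2 lower progenitor genes by means over cells and in Progenitor DC-named cells alone. Between conditions, 125 genes were higher and 152 lower after thinning, 433 and 729 with a minimum of 20 UMIs, 130 and 232 with one of 100 UMIs, and 147 were higher in G1 cells alone. Both lists were seen in 13.1% and 5.13% of cells at 1000 UMIs, in 75.4% and 41.1% at full depth, and Kit with any of Esam, Clec4a4, Cd4 and Dtx1 in 12.3% and 4.76%. Another 73 values of this kind stayed within 1.5 times or their interval. Depth limited genes with few UMIs, and the ratios of Knstrn, Sept3, Gp2, Cx3cr1, F13a1 and C3 rested on 1 UMI in a library.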
